A study of Mus musculus with 2 samples.

Results

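Heat shock proteins and their DNAJ partners form the molecular chaperones of the cytosol, the endoplasmic reticulum and the mitochondria, and their transcripts were described here in the heart of adult mice. The set held every protein-coding gene whose GENCODE M21 symbol begins with Hspa, Hspb, Hspd, Hspe, Hsph, Hsp90 or Dnaj. Of 74 such genes, 73 were matched by gene identifier to the deposited gene tables, out of 21474 protein-coding genes matched in all, and Hspa14 was not analysed here. The study has 1 group, the heart of C57BL/6J mice, an inbred laboratory strain, aged 8 weeks, with no genotype or treatment named. Its 2 poly(A) RNA-seq libraries (stranded, paired reads of 76 nucleotides, RNA over 200 nucleotides) are labelled biological replicates 1 and 2, come from tissue described as pooled male and female littermates, and share 1 donor record. With no contrast between conditions, the results are levels and the ratio of replicate 1 over replicate 2, which compares these libraries and has no replicate check.

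HSP70 proteins bind and release unfolded stretches of protein in a cycle driven by ATP. DNAJ proteins, which share the J domain, bring clients to HSP70 and trigger its ATP hydrolysis, and nucleotide exchange factors reset it. HSP90 acts later on signalling proteins and receptors, the HSP60 and HSP10 chaperonin folds proteins in the mitochondrial matrix, and the small heat shock proteins hold unfolding proteins without ATP. In heart muscle the small heat shock proteins are known for their association with sarcomeres, intermediate filaments and the Bag3 pathway of damaged-protein removal.

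The libraries differed in ways the labels do not give. Totals were 57464573 estimated counts in replicate 1 and 62912053 in replicate 2. Although both are labelled as mixed in sex, replicate 1 had 13725 counts of Xist against 13 in replicate 2, and 0 counts over 4 Y-linked genes against 2916 in replicate 2. Sex thus differs with library in every ratio below, and its part cannot be told apart from other differences between the libraries. Levels are given in TPM, the share of transcripts after division by length. Mitochondrial genome transcripts took up 46.5% of TPM in replicate 1 and 30.6% in replicate 2, and the TPM of nuclear genes is scaled against that share. By scaled counts none of 10 cardiomyocyte markers differed 2-fold. Nearest to the limit was Tnni3, 1.94-fold lower in replicate 1 (4631 TPM in replicate 1 and 11030 TPM in replicate 2). Lower in replicate 1 were 6 of 6 erythroid markers (sum 7592 TPM in replicate 1 and 94906 TPM in replicate 2), 7 of 7 airway secretory markers (1.17 and 2664 TPM), 11 of 11 ciliated cell markers with 20 counts (0.93 and 13.2 TPM) and 5 of 6 adipocyte markers (50.1 and 293 TPM). Of 6 genes each, no endothelial marker, 3 immune markers (Cd74, H2-Ab1 and Cd79a, lower in replicate 1) and 1 fibroblast marker (Lum, higher) passed 2-fold. In bulk tissue, fewer cells of a type and less RNA per cell cannot be told apart.

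The chaperone set was widely detected. At least 1 TPM in both libraries was reached by 62 of 73 members (84.9%), against 49.7% of protein-coding genes. Together the members made up 0.398% of TPM in replicate 1 and 0.482% in replicate 2 (0.440 ± 0.0594%, SD, n = 2). Of nuclear TPM alone they held 1.09% in replicate 1 and 0.892% in replicate 2, so which library gave the larger share depended on whether mitochondrial transcripts were counted. With erythroid and airway genes also left out, the shares were 1.12% in replicate 1 and 1.09% in replicate 2. HSP70 genes (12 members) and small heat shock proteins (8 members) made up most of this RNA. HSP70 genes summed to 1577 TPM in replicate 1 and 1602 TPM in replicate 2, and small heat shock proteins to 1499 TPM and 2292 TPM. The 5 members of highest TPM held 69.7% of the members' TPM in replicate 1 and 71.1% in replicate 2. Hspa8, Hspb6, Hspb7 and Hspb8 were among these 5 in both libraries, with Hsp90ab1 beside them in replicate 1 and Hspb1 in replicate 2. Without transcripts annotated as non-coding, Hspa8 had 261 TPM in replicate 1 and 128 TPM in replicate 2. In replicate 2 it then stood below Hspb6, Hspb7, Hspb1, Hspb8 and Hsp90ab1. Dnajb7, Dnajb8, Dnajc5b, Dnajc5g, Dnajc22 and Hspb9 had under 20 counts over both libraries, and 67 members entered the ratios.

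**Figure D1:**
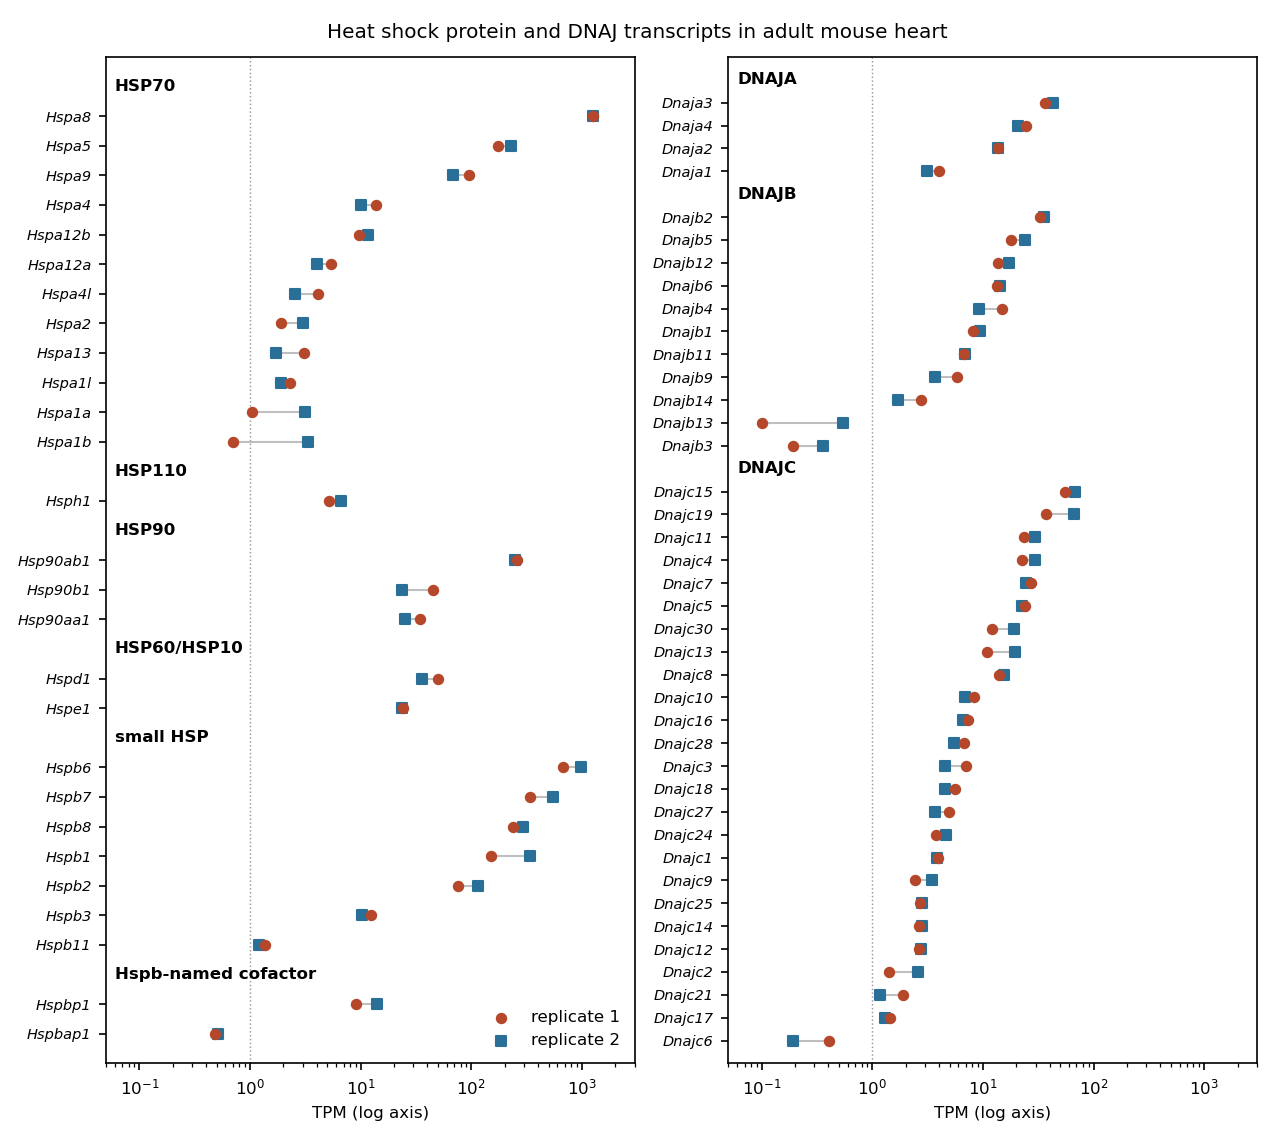
TPM on a log axis for the 67 members with at least 20 counts, by family, with circles for replicate 1, squares for replicate 2 and a dotted line at 1 TPM. The symbols lie close together for most members and farthest apart for Dnajb13, Hspa1b and Hspa1a.

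Among the HSP70 genes the constitutive forms of each compartment led. Hspa8, the constitutive cytosolic HSP70 that also uncoats clathrin vesicles, had 1264 TPM in replicate 1 and 1266 TPM in replicate 2. Hspa5, the HSP70 of the endoplasmic reticulum (BiP), had 176 TPM in replicate 1 and 226 TPM in replicate 2. Hspa9, the mitochondrial HSP70 (mortalin), had 95.4 TPM in replicate 1 and 68.5 TPM in replicate 2. By gene TPM these 3 compartment forms stood in the same order in both libraries. Without transcripts annotated as non-coding, Hspa9 stood above Hspa5 in both, with the values just given against 80.0 TPM in replicate 1 and 49.1 TPM in replicate 2 for Hspa5. Those Hspa5 values may leave out reads that also fit its coding transcript. The next pair, Hspa4, which acts as a nucleotide exchange factor, and Hspa12b, an HSP70 relative known from endothelium, had 12.0 ± 2.61 and 10.6 ± 1.32 TPM (SD, n = 2), a difference within their spread that changed order between the libraries. Hspa12a (4.74 ± 0.983 TPM) and Hspa4l (3.34 ± 1.09 TPM) followed. The 5 lowest, Hspa2, Hspa13, Hspa1l, Hspa1a and Hspa1b, had mean levels of 2.02 to 2.46 TPM, closer together than the spread of most of them. Hspa2 and Hspa1l are known for their roles in sperm development. Hspa2 had 1.90 TPM in replicate 1 and 3.01 TPM in replicate 2, and Hspa1l 2.32 TPM in replicate 1 and 1.90 TPM in replicate 2.

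The heat-inducible pair Hspa1a and Hspa1b differed most between the libraries among the HSP70 genes. Hspa1a (chr17:34969190-34972156 on mm10) had 181 counts and 1.05 TPM in replicate 1, and 571 counts and 3.14 TPM in replicate 2. Hspa1b (chr17:34956436-34959238) had 113 counts and 0.70 TPM in replicate 1, and 571 counts and 3.33 TPM in replicate 2. Both genes were lower in replicate 1 than in replicate 2 and at a low level in each. Scaled for library size, Hspa1a was 2.69-fold lower in replicate 1 (95% interval 2.27 to 3.20) and Hspa1b 4.31-fold lower (3.52 to 5.32). The 2 genes are near-identical copies, and how reads were divided between them is uncertain. The longest open reading frames of their leading transcripts differed at 8 of 1926 aligned bases (99.6% identity) and the full transcripts were 94.0% identical over 2688 aligned bases. Their posterior standard deviation, the authors' own measure of that uncertainty, was the largest among members with 20 counts, 5.14% of the count for Hspa1a in replicate 1 and 3.17% in replicate 2, and 8.16% and 3.16% for Hspa1b. Summed over both copies, which removes the division, 294 counts in replicate 1 and 1142 counts in replicate 2 gave a 3.31-fold lower level in replicate 1 (2.91 to 3.78). These intervals are exact binomial (Clopper-Pearson) and cover counting error only. With the trend of the ratio with GC content removed, the sum remained 2.41-fold lower, and Hspa1a alone, at a log2 ratio of -0.94, no longer passed 2-fold. The erythroid, airway and adipocyte markers given above were lower in replicate 1 too, and the libraries also differed in Xist and Y-linked counts. The part of either in these values was not tested.

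The copies lie 12918 bases apart and their upstream sequences are nearly the same. The 250 bases before the RefSeq starts (GRCm38.p6, minus strand, chr17:34972157-34972406 for Hspa1a and chr17:34959239-34959488 for Hspa1b) differed at 3 positions. They are shown because the pair moved together, and the capitals mark a match to GAANNTTC, a pair of the inverted GAA units that heat shock factor binds, 104 to 97 bases before each start.
Hspa1a: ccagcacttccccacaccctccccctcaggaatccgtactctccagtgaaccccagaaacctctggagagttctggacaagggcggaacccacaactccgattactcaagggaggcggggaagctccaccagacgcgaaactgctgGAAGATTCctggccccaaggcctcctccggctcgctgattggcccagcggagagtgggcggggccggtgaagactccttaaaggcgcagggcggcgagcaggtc
Hspa1b: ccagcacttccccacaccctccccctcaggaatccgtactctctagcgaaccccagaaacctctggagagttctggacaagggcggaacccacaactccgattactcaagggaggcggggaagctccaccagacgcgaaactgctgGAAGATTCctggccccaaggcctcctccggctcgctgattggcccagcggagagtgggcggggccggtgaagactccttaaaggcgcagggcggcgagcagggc
The match stood at the same place in both copies, and GAANNTTC occurred on either strand in 7.86% of all 32851 RefSeq windows of 300 bases (250 before to 50 after a start). By gene it was found for 14 of 59 members with such a window (23.7%), against 2442 of 27025 genes (9.04%). The 14 count the copies Hspa1a and Hspa1b as separate genes, and also the neighbours Hspd1 and Hspe1, whose windows overlap. The same units in the other order, TTCNNGAA, were found for 6 of 59 members (10.2%), against 2594 of 27025 genes (9.60%). The letters describe these windows and do not show that a factor was bound.

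HSP90 genes were led by the constitutive cytosolic form. Hsp90ab1 had 257 TPM in replicate 1 and 246 TPM in replicate 2. Hsp90b1, the HSP90 of the endoplasmic reticulum (Grp94), had 45.2 TPM in replicate 1 and 23.6 TPM in replicate 2. Hsp90aa1, the inducible cytosolic form, had 34.5 TPM in replicate 1 and 25.2 TPM in replicate 2. Hsp90ab1 exceeded Hsp90aa1 by 7.44-fold in replicate 1 and 9.78-fold in replicate 2. By TPM, Hsp90b1 and Hsp90aa1 did not differ beyond their spread (34.4 ± 15.3 and 29.8 ± 6.60 TPM, SD, n = 2) and changed order between the libraries. The 711-base transcript Hsp90aa1-208 held 64.0% of Hsp90aa1 TPM in replicate 1 and 68.9% in replicate 2. By CPM, not divided by length, Hsp90b1 (119 in replicate 1 and 63.4 in replicate 2) was above Hsp90aa1 (56.3 and 33.5) in both libraries. By scaled counts Hsp90b1 was 1.87-fold higher in replicate 1 (1.80 to 1.95), just under the 2-fold limit, together with Hspa13 at 1.87-fold (1.65 to 2.12). With the GC trend removed, the log2 ratio went from 0.90 to 0.50 for Hsp90b1 and from 0.90 to 0.41 for Hspa13. Hsph1, the HSP110 nucleotide exchange factor, had 5.15 TPM in replicate 1 and 6.67 TPM in replicate 2. In replicate 2, 2.48 TPM of Hsph1 lay on a 416-base transcript not listed in M21, with 35.7 counts there and 0 in replicate 1. By scaled counts Hsph1 was 1.31-fold higher in replicate 1 (1.20 to 1.42), the other direction from its TPM. By TPM, Hspa4, of the same HSP110 branch, exceeded Hsph1 by 2.69-fold in replicate 1 and 1.52-fold in replicate 2.

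Hspd1 (HSP60) and Hspe1 (HSP10), the subunits of the mitochondrial chaperonin, are neighbours on chromosome 1 that face away from each other. Hspd1 (chr1:55077835-55088243, minus strand) had 49.6 TPM in replicate 1 and 36.1 TPM in replicate 2. Hspe1 (chr1:55088132-55091307, plus strand) had 24.2 TPM in replicate 1 and 23.6 TPM in replicate 2. Hspd1 was the higher of the pair in both libraries. By scaled counts Hspd1 was 1.51-fold higher in replicate 1 (1.44 to 1.57) and Hspe1 1.13-fold higher (1.02 to 1.24). Hspa9, their HSP70 counterpart in the matrix, exceeded Hspd1 by 0.93 ± 0.014 on the log2 TPM scale, the smallest spread of the 25 pairs of related members compared. In M21 their outermost starts lie 111 bases apart and the genes overlap there, so reads counted without strand could come from either gene, and no source used here names the strand setting. The same limit holds for 34 members that overlap a gene on the opposite strand, among them Dnajb13 (Ucp2), Dnajc19 (Fxr1), Hspa1a (Gm20481) and Hspb6 (Proser3 and Lin37).

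A full heat shock element of 3 units, GAANNTTCNNGAA on either strand, was found in the windows of 4 of 59 members with a RefSeq window (6.78%), Hspd1, Hspe1, Dnajb6 and Hsph1, against 179 of 27025 genes (0.662%). This is a description of letters with no test. Only exact matches were searched, so elements with a unit that departs from these letters were not counted. The windows of Hspe1 and Dnajb6 are shown because they hold the complete element before the start, with the 3-unit matches in capitals (GRCm38.p6, plus strand, chr1:55087898-55088147 for Hspe1 and chr5:29735648-29735897 for Dnajb6).
Hspe1: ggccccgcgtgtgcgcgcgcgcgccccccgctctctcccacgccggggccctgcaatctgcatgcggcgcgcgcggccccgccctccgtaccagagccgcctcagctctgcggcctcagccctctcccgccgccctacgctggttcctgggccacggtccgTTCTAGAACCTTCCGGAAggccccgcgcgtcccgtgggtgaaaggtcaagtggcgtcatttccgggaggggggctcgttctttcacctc
Dnajb6: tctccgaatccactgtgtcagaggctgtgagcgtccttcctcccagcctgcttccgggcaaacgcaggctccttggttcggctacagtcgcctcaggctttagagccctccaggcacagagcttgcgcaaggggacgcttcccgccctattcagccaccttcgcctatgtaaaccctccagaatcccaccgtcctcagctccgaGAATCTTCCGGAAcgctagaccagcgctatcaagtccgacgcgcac
In Hspe1 a pair of overlapping matches ran from 89 to 72 bases before the start. Of the window of Hspd1 that holds them, 285 of 300 bases are the same stretch read on the other strand, so this is 1 site shared by both chaperonin genes. In Dnajb6 the match lay 46 to 34 bases before the start of the window shown, or 127 to 115 bases before another annotated start. In Hsph1 it lay after the start, at bases 16 to 28 or 37 to 49 depending on which of its annotated starts is used. The 4 genes with the full element had log2 ratios of 0.59 for Hspd1, 0.17 for Hspe1, 0.01 for Dnajb6 and 0.38 for Hsph1. In the windows of Hspa1a and Hspa1b, with the ratios given above, the exact search found only the 2-unit match. No binding was measured, and the part of heat shock factor in these ratios was not tested.

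The small heat shock proteins were the family with the highest level per gene, and 5 of its 8 members had at least 76.4 TPM in both libraries. Hspb6 (HSP20, chr7:30552178-30555443), a phosphoprotein of muscle, had 680 TPM in replicate 1 and 989 TPM in replicate 2. Hspb7 (chr4:141420779-141425311), the cardiovascular small heat shock protein that binds filamin, had 340 TPM in replicate 1 and 545 TPM in replicate 2. Hspb8, the partner of Bag3, had 236 TPM in replicate 1 and 292 TPM in replicate 2. Hspb1 (HSP25 in mouse, chr5:135887919-135889563), which protects actin filaments, had 152 TPM in replicate 1 and 339 TPM in replicate 2. Hspb2, which binds the kinase Dmpk, had 76.4 TPM in replicate 1 and 115 TPM in replicate 2. These 5 were each lower in replicate 1. Hspb3, known from muscle as the partner of Hspb2, had 12.5 TPM in replicate 1 and 10.4 TPM in replicate 2. Hspb11 (Ift25), which works in intraflagellar transport, had 1.36 TPM in replicate 1 and 1.21 TPM in replicate 2. Hspb9, known from testis, had 5 counts in replicate 1 and 10 counts in replicate 2. A pair of cofactors shares the symbol but not the family. Hspbp1, a nucleotide exchange factor of HSP70, had 9.14 TPM in replicate 1 and 14.1 TPM in replicate 2, and Hspbap1, which binds Hspb1, had 0.48 and 0.51 TPM.

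Hspb6 exceeded Hspb7 in both libraries, by 2.00-fold in replicate 1 and 1.82-fold in replicate 2. Hspb8 and Hspb1 changed order between the libraries and did not differ beyond their spread (264 ± 39.5 and 245 ± 132 TPM, SD, n = 2). The family held 37.6% of the members' TPM in replicate 1 and 47.5% in replicate 2. By scaled counts the median log2 ratio of the 7 small heat shock proteins with at least 20 counts was -0.40. Hspb1 was 2.03-fold lower in replicate 1, with an interval of 1.97 to 2.09 that spans the limit. The family is rich in GC (median 54.9%, against 50% for all genes with a ratio). With the GC trend removed the family's median became -0.09 and Hspb1 was at -0.39. Smooth muscle markers, from tissue that also expresses Hspb1 and Hspb6, summed to 462 TPM in replicate 1 and 488 TPM in replicate 2, with 1 of 6 (Cnn1) at least 2-fold lower. Acta2 held most of these sums (362 TPM in replicate 1 and 315 TPM in replicate 2), the 5 others were each lower in replicate 1, and the median log2 ratio of the 6 was -0.71. Their part in the values of Hspb1 and Hspb6 was not tested. Cryab (alpha B crystallin), the small heat shock protein whose symbol lies outside the set, had 657 TPM in replicate 1 and 1348 TPM in replicate 2, and was 1.86-fold lower in replicate 1 by scaled counts. Its start lies 1029 bases from that of Hspb2 on chromosome 9, and the genes overlap on opposite strands. Cryaa, the lens crystallin, had 0 and 4 counts.

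**Figure D2:**
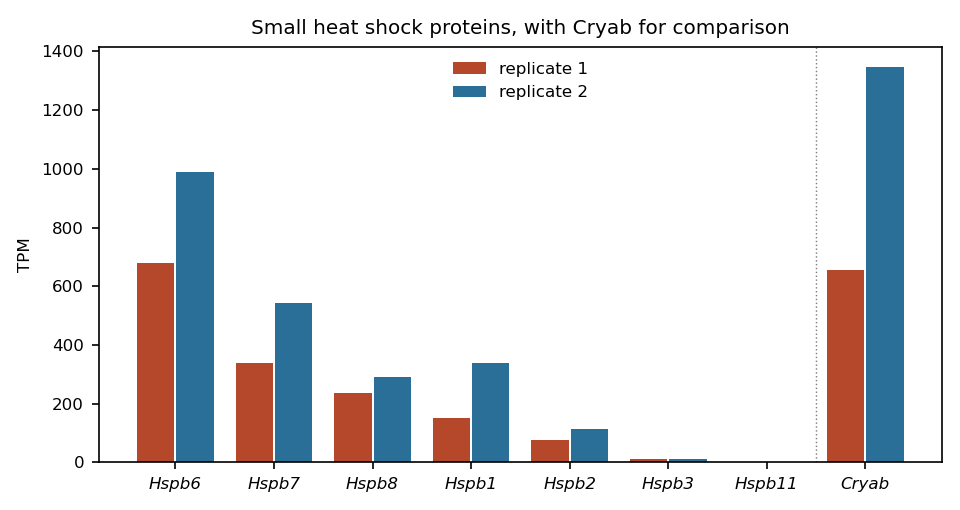
TPM of the 7 small heat shock proteins with at least 20 counts and of Cryab (right of the dotted line), with replicate 1 as the left bar and replicate 2 as the right bar of each pair, 1 library a bar. The bars of Hspb6, Hspb7, Hspb8, Hspb1, Hspb2 and Cryab are shorter in replicate 1 than in replicate 2.

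The 250 bases before the start of Hspb1 (GRCm38.p6, plus strand, chr5:135887669-135887918) are shown because Hspb1 was the small heat shock protein with the greatest difference between the libraries. The capitals mark 2 separate matches to GAANNTTC, from 117 to 110 and from 97 to 90 bases before the start.
Hspb1: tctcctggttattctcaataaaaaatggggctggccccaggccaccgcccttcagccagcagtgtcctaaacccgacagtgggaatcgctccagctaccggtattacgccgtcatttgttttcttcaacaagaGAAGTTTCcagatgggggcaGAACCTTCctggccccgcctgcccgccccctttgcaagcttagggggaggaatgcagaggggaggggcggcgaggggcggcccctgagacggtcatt
Hspb6, Hspb3 and Hspb8 each held 1 match to GAANNTTC in their windows, 120, 224 and, after the start, 3 bases away, and their ratios were -0.40, 0.41 and -0.16 on the log2 scale. The small heat shock proteins with such a match thus stood on either side of 0.

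DNAJ genes were individually lower and broadly detected, with 37 of 45 at or above 1 TPM in both libraries. The DNAJC class (28 members) summed to 290 TPM in replicate 1 and 352 TPM in replicate 2, DNAJB (13 members) to 116 and 124 TPM, and DNAJA (4 members) to 78.5 and 80.3 TPM. The highest were mitochondrial. Dnajc15, of the inner membrane import motor, had 54.9 TPM in replicate 1 and 68.2 TPM in replicate 2. Dnajc19, a paralog at the same motor whose loss causes dilated cardiomyopathy with ataxia in humans, had 37.4 TPM in replicate 1 and 66.3 TPM in replicate 2. Dnaja3 (Tid1), the main J-domain partner of Hspa9, had 36.5 TPM in replicate 1 and 42.8 TPM in replicate 2. Dnajc15 was the higher of the import motor pair in both libraries, by 0.56 in replicate 1 and 0.04 in replicate 2 on the log2 TPM scale. Dnajc30 (12.1 TPM in replicate 1 and 18.9 TPM in replicate 2), Dnajc4 (22.8 and 29.7 TPM) and Dnajc11 (23.5 and 29.3 TPM), also mitochondrial, each had the lower TPM in replicate 1.

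Among cytosolic DNAJ genes, Dnajb2, a J protein of neurons and muscle that hands clients to the proteasome, led the class B genes with 32.6 TPM in replicate 1 and 35.9 TPM in replicate 2. Dnajb5 had 17.9 TPM in replicate 1 and 24.2 TPM in replicate 2. Dnajb6, mutated in a human limb-girdle muscular dystrophy, had 13.5 TPM in replicate 1 and 14.2 TPM in replicate 2. Dnajb1 (HSP40), the stress-inducible partner of HSP70, had 8.20 TPM in replicate 1 and 9.50 TPM in replicate 2, and Dnajb4 had 14.9 and 9.22 TPM, so the order of Dnajb1 and Dnajb4 turned between the libraries. Among the class A partners of Hspa8, Dnaja4 (24.4 TPM in replicate 1 and 20.7 TPM in replicate 2) and Dnaja2 (13.7 and 13.8 TPM) stood above Dnaja1 (4.01 and 3.09 TPM) in both libraries. Dnajc7, which also binds HSP90, had 27.2 TPM in replicate 1 and 24.5 TPM in replicate 2. Dnajc5, the cysteine string protein of vesicle release, had 23.9 TPM in replicate 1 and 22.8 TPM in replicate 2, while its relatives Dnajc5b and Dnajc5g had 4 counts or fewer in all. Dnajb12, of the endoplasmic reticulum membrane, had 13.7 TPM in replicate 1 and 17.2 TPM in replicate 2, above its relative Dnajb14 at 2.73 and 1.69 TPM. Dnajc13 and Dnajc8 averaged 15.2 ± 5.90 and 14.7 ± 1.03 TPM (SD, n = 2). Dnajc6, the clathrin uncoating factor auxilin, had 38 counts and 0.41 TPM in replicate 1, and 36 counts and 0.19 TPM in replicate 2. By scaled counts it was 1.24-fold higher in replicate 1 (0.763 to 2.01, an interval that includes equality). A 444-base transcript with 3.64 counts in replicate 1 and 0 in replicate 2 held 60.0% of Dnajc6 TPM in replicate 1. The 10 DNAJC members not named averaged 1.37 to 6.97 TPM. In 23 of the 25 pairs of related members the same gene was higher in both libraries. The exceptions were Hspb1 with Hspb8 and Dnajb1 with Dnajb4.

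Partners of Hspa5 in the endoplasmic reticulum were modest. Dnajb9 (5.88 TPM in replicate 1 and 3.70 TPM in replicate 2), Dnajb11 (6.74 and 6.90 TPM), Dnajc3 (7.03 and 4.54 TPM) and Dnajc10 (8.22 and 6.82 TPM) each lay below 9 TPM. By scaled counts each of the 4 was higher in replicate 1, by 1.76-fold for Dnajb9 (1.55 to 2.00), 1.72-fold for Dnajc3 (1.61 to 1.84), 1.35-fold for Dnajc10 (1.26 to 1.44) and 1.08-fold for Dnajb11 (0.977 to 1.20, an interval that includes equality). With the GC trend removed, the log2 ratio went from 0.81 to 0.35 for Dnajb9, from 0.78 to 0.42 for Dnajc3 and from 0.43 to 0.15 for Dnajc10. That of Dnajb11 stayed at 0.11. Of 13 other folding genes of the endoplasmic reticulum, none passed 2-fold, with a median log2 ratio of 0.40 before any removal of the GC trend.

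Dnajb13, a J protein of the sperm tail and of motile cilia, stood apart. It had 6 counts and 0.10 TPM in replicate 1, and 37 counts and 0.54 TPM in replicate 2, a 5.26-fold lower level in replicate 1 (2.20 to 15.3). The ciliated cell markers moved with it. All 11 with at least 20 counts were lower in replicate 1, and Tmem212, Dynlrb2, Ccdc153, Sntn and Dnah11 had 0 counts in replicate 1. Foxj1, the master regulator of motile cilia, had 2 counts in replicate 1 and 427 in replicate 2. The part of such cells in the Dnajb13 value was not tested.

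Several chaperone genes were led by short transcripts. Gene TPM sums over transcripts, so a short transcript with few counts can hold much of it. In Hspa8, 57.7% of the gene's TPM in replicate 1 and 57.8% in replicate 2 lay on Hspa8-209, a transcript of 727 bases annotated as processed, all of whose 4 exons lie within exons of the coding transcript Hspa8-201 (2394 bases). All 727 of its bases are shared with Hspa8-201, so reads on them were divided by estimation. Transcripts annotated as non-coding made up 79.3% of Hspa8 TPM in replicate 1 and 89.8% in replicate 2, and 49.2% and 68.4% of its counts. On the remaining transcripts Hspa8 had 261 TPM in replicate 1 and 128 TPM in replicate 2 (2.03-fold). The gene's equal TPM in the libraries thus stood beside 70319 counts in replicate 1 and 57139 in replicate 2, with an effective length of 892 bases in replicate 1 and 687 in replicate 2.

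Hspa5 showed the same pattern with a transcript annotated for nonsense-mediated decay. Hspa5-204 (477 bases, 470 of them shared with the coding Hspa5-202) made up 52.6% of its TPM in replicate 1 and 77.1% in replicate 2. Without transcripts annotated as non-coding, Hspa5 had 80.0 TPM in replicate 1 and 49.1 TPM in replicate 2, so the direction of its TPM difference turned. Hsp90aa1 was also led by a short form, Hsp90aa1-208 (711 bases, annotated as coding), with 64.0% of TPM in replicate 1 and 68.9% in replicate 2, but 22.7% and 27.3% of counts. Dnajc7, Dnajc11 and Dnajc24 had over 50% of TPM on transcripts annotated as non-coding in both libraries. Dnajc15 did too, because its 1 listed transcript is annotated for nonsense-mediated decay in M21. With Hspa8 and Hspa5 these made 6 genes, or 9.52% of the 63 members with a mean of at least 1 TPM, against 7.40% of 11161 protein-coding genes. At the other end, 51 of the 63 (81.0%) had under 10% on such transcripts in both libraries, against 64.9% of protein-coding genes. The small heat shock proteins belonged there, with Hspb7-201, Hspb2-201 and Hspb3-201 at 100% and Hspb6-201 at 99.7% of TPM in replicate 1. Without transcripts annotated as non-coding, the small heat shock proteins held 54.4% of the members' TPM in replicate 1 and 68.1% in replicate 2. These shares may leave out Hspa8 and Hspa5 reads that also fit coding transcripts. The leading transcript was the same in both libraries in 43 of 44 members with a choice of transcripts (97.7%), against 84.0% of 7987 protein-coding genes, and Dnajc28 was the exception.

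**Figure D3:**
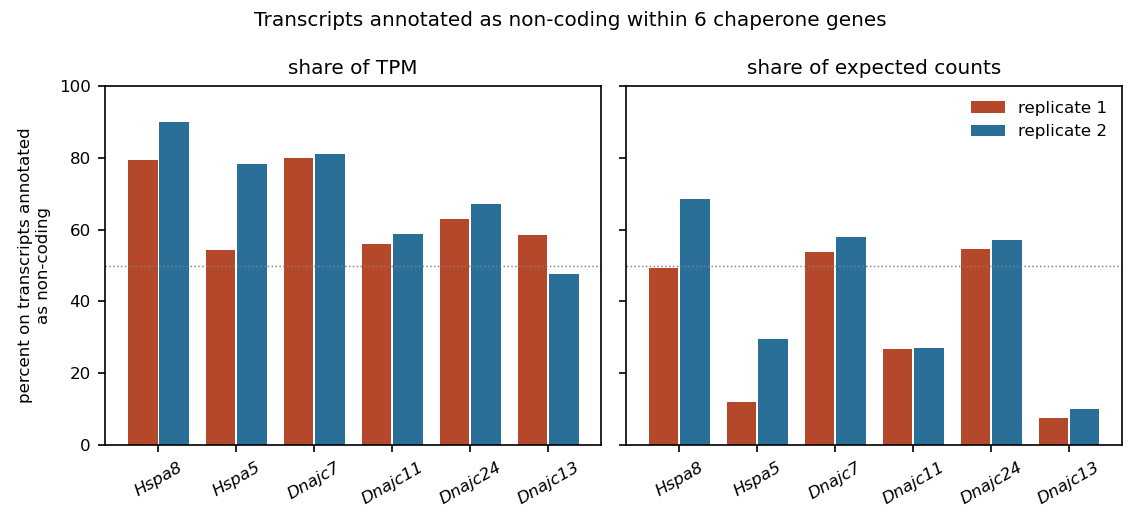
Percent of each gene's TPM (left panel) and expected counts (right panel) on transcripts annotated as non-coding, with replicate 1 as the left bar and replicate 2 as the right bar, 1 library a bar, and a dotted line at 50%. For Hspa8 the bars reach 79.3% and 89.8% of TPM but 49.2% and 68.4% of counts, and for Dnajc13 they reach 58.5% and 47.7% of TPM but 7.53% and 9.95% of counts.

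Between the libraries, few members passed 2-fold. No member was at least 2-fold higher in replicate 1, where 3.68% of 16145 genes were, and 4 of 67 (5.97%) were at least 2-fold lower, where 9.06% of genes were. Both shares lie below those of all genes, a gap of few genes that was not tested. The 4 were Dnajb13, Hspa1b, Hspa1a and Hspb1. Just outside the limit on the lower side lay Dnajb3 (0.19 TPM in replicate 1 and 0.36 TPM in replicate 2) at a log2 ratio of -0.77 and Dnajc19 at -0.71, and on the higher side Hsp90b1 at 0.90, Hspa13 at 0.90 and Dnajb4 at 0.87. The median log2 ratio of the members was 0.14, against -0.01 for all genes with a ratio, with 40 members above 0 and 27 below. Its direction depended on the scaling, at 0.038 by total gene counts and -0.037 by the ratio of TPM. By family the median was 0.75 for HSP90 (3 of 3 above 0), 0.53 for HSP70 (8 of 12 above 0), 0.27 for DNAJA (3 of 4), 0.11 for DNAJC (15 of 25), -0.06 for DNAJB (5 of 11) and -0.40 for small heat shock proteins (2 of 7).

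The ratio followed GC content in the members as in all genes. Spearman's rho between ratio and GC content was -0.63 over 67 members and -0.56 over 16048 genes, a description over genes that share both libraries. The 18 members under 45% GC had a median log2 ratio of 0.63, the 28 from 45% to 52% had 0.29, and the 21 above had -0.34. All genes in the same ranges had medians of 0.41, 0.10 and -0.34. With the trend removed, 4 members were at least 2-fold lower in replicate 1, and Hspa1a and Hspb1 were not among them. The 4 were Dnajb13, Hspa1b, Dnajc19 (1083 counts in replicate 1 and 2077 in replicate 2) and Dnajc2 (181 and 335 counts). The median became 0.32 for HSP70 and 0.42 for HSP90. Dnajc19 and Dnajc2, at 40.3% and 41.7% GC, were low in replicate 1 where other genes of their GC content were high.

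**Figure D4:**
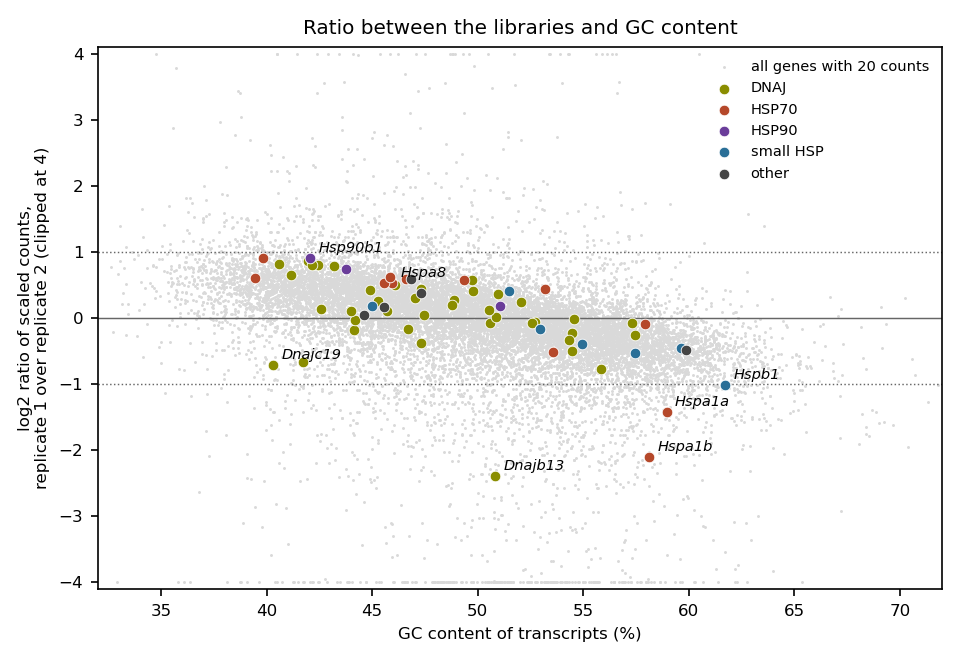
Log2 ratio of scaled counts, replicate 1 over replicate 2, against GC content in percent for the 67 members (coloured by family) and all genes with a ratio (grey, clipped at 4 in either direction), with dotted lines at 2-fold. Members slope downward with GC content, from Hspa13 and Hsp90b1 near 0.90 to Hspb1 at -1.02, and Dnajb13, Hspa1b and Hspa1a lie farthest below 0.

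Genes that work with the chaperones mostly stayed within 2-fold. Of 6 heat shock factors and their binding protein, 4 had at least 20 counts and none passed 2-fold. Hsf1, the main factor of the heat shock response, had 18.1 TPM in replicate 1 and 27.5 TPM in replicate 2. None of 11 nucleotide exchange and BAG genes passed. Bag3, the partner of Hspb8, had 45.9 TPM in replicate 1 and 77.7 TPM in replicate 2, and Bag6 had 52.4 and 73.8 TPM. None of 21 HSP90 co-chaperones passed. They were led by the muscle methyltransferase Smyd1 (130 TPM in replicate 1 and 102 TPM in replicate 2), the immunophilin Fkbp4 (87.7 and 110 TPM), the phosphatase Ppp5c (56.1 and 81.9 TPM) and the mitochondrial HSP90 Trap1 (58.5 and 65.6 TPM). Unc45b, the myosin chaperone of muscle, had 55.6 TPM in replicate 1 and 56.3 TPM in replicate 2. None of 8 subunits of the cytosolic chaperonin TRiC with at least 20 counts and none of 9 mitochondrial proteases and partners passed. Pam16, a J-like gene of the import motor, was 1.93-fold lower in replicate 1 (20.2 TPM in replicate 1 and 42.7 TPM in replicate 2).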

How the data were processed

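Both libraries of the single group, poly(A) RNA of adult mouse heart, were used. The authors deposited gene and transcript tables on mm10 with GENCODE M4, per the notes beside the tables, with aligner, quantification program and strand setting not given in the sources used here. Expected counts, as deposited, estimate fragments per gene or transcript and divide reads that fit several. TPM, as deposited, divides them by effective length, and its sum is equal between the libraries. FPKM and the percent of a gene per transcript, both deposited by the authors, served as an alternative and a check. Other deposited columns give the spread of each count's posterior estimate and the lengths. Junction and contig lists on mm9 were not used here.

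Symbols, types, GC content and coordinates came from GENCODE M21 by gene identifier, and 18 of 298 member transcripts not listed in M21 were not counted as non-coding. Of the transcripts, those M21 types as anything but protein-coding were called non-coding. Expected counts were rounded to whole numbers and scaled by TMM (factors 0.966 and 1.04 on gene totals of 56516005 and 61827329 counts, edgeR 4.0.16, R 4.3.3). Ratios were formed for the 16145 genes whose counts summed to at least 20. A gene passed at 2-fold, and no p-value was computed because each side is 1 library. The 95% intervals are exact binomial, cover counting error only, and 3 counts correspond to 0.0549 and 0.0469 CPM. The ratio and interval were tested on simulated counts. The GC trend was a lowess over all genes (fraction 0.3, statsmodels 0.14.6). The labels do not fully give whether the libraries came from separate animals. Their Xist and Y-linked counts, given above, show that they did not come from the same mixed-sex tissue. Their spread may still be partly technical.

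Promoter windows came from RefSeq (GRCm38.p6), with 59 members matched by symbol in 76 windows, and motifs were searched on both strands, where the 3-unit element contains the 2-unit ones. Transcripts were aligned with Biopython 1.88. Python 3.11.15, pandas 2.3.3 and scipy 1.17.1 were used.

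The text names all members outside the Dnaj symbols, the 15 Dnaj genes of highest mean TPM, members past 2-fold, members of the 25 pairs, members under 20 counts by name, and up to 4 genes per other list with those past 2-fold. Dnajb3, Dnajc2, Dnajc6, Dnajc24, Dnajc28 and Unc45b are named outside this rule, having been picked once their values were known. The members and lists were chosen with earlier results of these data known. The value of 1 gene outside the members is not reported here.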

Additional observations from a re-analysis of the deposited data

How the results depend on the processing

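Posterior mean TPM and FPKM left the members' share of TPM, the share of small heat shock proteins and the count of detected members within the spread of the libraries or the same. Posterior mean TPM moved 2 of the 25 pair ratios on the log2 scale, to 7.50 for Dnajc5 over Dnajc5b (9.39 by TPM) and to -2.54 for Dnaja1 over Dnaja4 (-2.67 by TPM), and count per annotated length moved 2 others, to 0.99 for Hspa9 over Hspd1 (0.93) and 0.81 for Hspb6 over Hspb7 (0.93). The members' share of TPM was 0.993% of nuclear TPM, 1.10% of nuclear TPM without erythroid and airway genes, and 0.322% without transcripts annotated as non-coding, which also raised the share of small heat shock proteins to 61.3%. Leaving out a library at a time gave 0.398% to 0.482% for the members, 37.6% to 47.5% for the small heat shock proteins and 62 to 63 detected members. Among ratios, a minimum of 1 count gave 2 members higher in replicate 1, the ratio of TPM gave 1 (Dnajc6) and a median of -0.037, and a 1.5-fold limit gave 13 higher and 7 lower. DESeq2 size factors (DESeq2 1.42.0), TMM over kept genes and total gene counts gave 0 higher and 4 lower, Hspb1 included. Removing the length trend gave 3 lower, without Hspb1, and removing the GC trend kept 4 with different members, as the report gives. The summed Hspa1a and Hspa1b ratio passed 2-fold under every alternative run, from 2.41-fold to 3.70-fold lower in replicate 1. No paired analysis was possible because there is 1 group. The alternatives without erythroid and airway genes, without transcripts annotated as non-coding, and TMM over kept genes were chosen after seeing the data. Depth limits the members under 20 counts, and 2 libraries limit the SDs.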
